A study of Saccharomyces cerevisiae BY4741 with 4 samples.

Results

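Total RNA of growing budding yeast was examined here after every feature of the cytoplasmic ribosomal RNA had been set aside, so that the stable noncoding RNAs, the mitochondrial RNAs and the leading mRNAs of that fraction could be described. The members were the features left in the 2 total RNA libraries once all names containing RDN, ETS or ITS, and the reading frames that lie inside the ribosomal DNA (YLR154W-A to YLR154W-H and YLR162W-A), had been dropped. This left 7348 of 7382 features and 2 of the 4 libraries of the series. The study measured modified nucleosides in yeast mRNA, and the sequencing recorded which RNAs each preparation held. The cells were Saccharomyces cerevisiae BY4741, a haploid laboratory strain labelled wild type, grown in the rich glucose medium YPD at 30 °C until the OD600 reached 0.6. From each culture of 100 mL, 10 mL was extracted with hot acidic phenol and treated with DNase I, and 50 ng of fragmented RNA was copied from random hexamers, amplified over 14 PCR cycles and read as single ends of 50 bases. The 2 libraries are biological replicates per the labels. They form 1 group, so values are given for each library, replicate 1 before replicate 2, and no test between conditions was made.

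The libraries held 53746838 and 75955489 counts in all, of which 1922089 and 2687724 lay outside the ribosomal RNA. These were 3.58% (exact Clopper-Pearson 95% interval 3.57% to 3.58%) and 3.54% (3.53% to 3.54%) of the counts, or 3.56 ± 0.0266% (SD, n = 2). Intervals and floors cover counting error only, since no molecular identifiers were used. A count of 0 allowed up to 1.56 counts per 1000000 counts outside ribosomal RNA in replicate 1 and up to 1.12 in replicate 2, taking 3 counts as the floor. Of the 7348 features, 6744 named a single gene, and the other 604 joined the names of features that overlap on the genome. Joined features held 4.24% and 4.31% of the counts outside ribosomal RNA. Levels are given as RPKM, here the counts per kilobase of coding or exon length per 1000000 counts outside ribosomal RNA, and are set against the median of 5878 single nuclear coding features with a length, which was 32.6 RPKM in replicate 1 and 31.5 RPKM in replicate 2.

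In a growing yeast cell most RNA by mass is ribosomal, and what remains falls into stable RNAs that act as parts of protein complexes and mRNAs that are made and destroyed quickly. The stable RNAs include SCR1, the RNA of the signal recognition particle, the RNAs of RNase P and RNase MRP, the small nuclear RNAs (snRNAs) of the spliceosome, and the small nucleolar RNAs (snoRNAs) that guide nucleotide changes in ribosomal RNA or take part in cutting its precursor. The snoRNAs fall into a C/D class, whose members carry the C and D boxes near their ends and mostly guide 2′-O-methylation, and an H/ACA class, whose members end near an ACA triplet and mostly guide pseudouridylation. Mitochondria transcribe their own genome into long precursors that hold ribosomal RNAs, tRNAs and a few mRNAs, some with introns that contain reading frames of their own.

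The C/D snoRNAs below are shown because annotated neighbours from the same strand, and RNAs of the same class but other length, differed widely in level. The sequences are DNA letters of the RefSeq R64 assembly read 5′ to 3′ on the gene's strand, and the capitals mark the C box TGATGA and the D box CTGA where they were found within the first 20 and the last 15 bases. SNR190 lies at chrX:139761-139950 (minus strand), SNR128 at chrX:139566-139691 (minus strand), SNR70 at chrXVI:718887-719050 (minus strand) and SNR59 at chrXVI:173827-173904 (plus strand).
SNR190: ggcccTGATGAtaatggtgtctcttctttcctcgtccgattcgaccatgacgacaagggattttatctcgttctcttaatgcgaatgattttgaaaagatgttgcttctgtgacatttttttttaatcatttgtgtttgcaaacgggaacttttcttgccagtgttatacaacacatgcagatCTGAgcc
SNR128: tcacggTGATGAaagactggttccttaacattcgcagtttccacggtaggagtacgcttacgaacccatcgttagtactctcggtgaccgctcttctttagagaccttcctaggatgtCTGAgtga
SNR70: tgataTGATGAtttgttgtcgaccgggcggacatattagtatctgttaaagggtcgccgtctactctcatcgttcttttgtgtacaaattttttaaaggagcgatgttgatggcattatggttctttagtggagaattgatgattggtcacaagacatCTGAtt
SNR59: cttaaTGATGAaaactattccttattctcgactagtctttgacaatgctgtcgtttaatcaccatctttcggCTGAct
On the sense strand, TGATGA stood within the first 20 bases of 36 of 47 C/D snoRNAs (76.6%), of 1 of 29 H/ACA snoRNAs (3.45%) and of 0.987% of 5878 coding sequences. The letters CTGA stood within the last 15 bases of 45 of 47 C/D snoRNAs (95.7%), 1 of 29 H/ACA snoRNAs and 7.42% of coding sequences. A match is a description of the letters and not of a bound protein.

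For H/ACA snoRNAs the last 30 bases are shown for 3 RNAs that differ in length and have high levels for the class. The capitals mark ACA where it stood exactly at positions 6 to 4 from the annotated end. They are SNR83 (chrXIII:626625-626654, plus strand), SNR37 (chrX:228094-228123, minus strand) and SNR86 (chrXIII:762110-762139, minus strand).
SNR83: aaattgggactaatattaagggcgACAgtt
SNR37: taagcgactcttcttcatgataagACAgtt
SNR86: agaatgtagtttcatacccgggagaaattc
ACA stood at exactly this place in 14 of 29 H/ACA snoRNAs (48.3%), in 3 of 47 C/D snoRNAs (6.38%) and in 1.19% of coding sequences, searched on the sense strand. SNR86, among the H/ACA snoRNAs with the highest levels, had no match in this window.

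For the spliceosomal RNAs, U6 is shown whole because its count was close to 0, and U1, U4 and U5 are shown by a window around ATTTTTG or ATTTTTTG, letters that resemble the site where Sm proteins bind. Capitals mark that run in U1 (SNR19, chrXIV:230105-230131, minus strand), U4 (SNR14, chrV:167427-167454, minus strand) and U5 (SNR7-L, chrVII:939488-939517, minus strand), and mark ACAGAGA in U6 (SNR6, chrXII:366235-366346, plus strand), the stretch known to pair with the 5′ splice site.
SNR19: tggatcttataATTTTTGatttatttt
SNR14: ctatgtagggaATTTTTGgaataccttt
SNR7-L: gggcttgccatATTTTTTGgaacttttctg
SNR6: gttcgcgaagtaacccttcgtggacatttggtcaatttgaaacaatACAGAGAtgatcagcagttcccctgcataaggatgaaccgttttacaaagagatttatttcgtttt
On the sense strand, either form of the run stood in 8 of 84 stable RNA sequences (9.52%) and in 29.1% of coding sequences, which are mostly longer. U1 held 3 such runs, of which the last is shown, and U4 and U5 held 1 each. ACAGAGA stood in 1 of the 84 stable RNAs, U6 itself, and in 14.8% of coding sequences.

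Nuclear coding features made up most of the fraction. They held 86.0% and 87.0% of the counts outside ribosomal RNA, or 86.5 ± 0.718% (SD, n = 2), over 7001 features of which 571 were joined. The group of SCR1, RPR1 and NME1 held 6.14% and 6.07% (6.11 ± 0.0491%), the 76 snoRNA features 4.20% and 3.80% (4.0 ± 0.281%), and the snRNAs 2.40% and 2.02% (2.21 ± 0.272%). Mitochondrial ribosomal RNA came next with 0.728% and 0.645% (0.686 ± 0.0590%). Joined features of mixed kinds, chiefly the pair of YGL088W and SNR10, held 0.321% and 0.244%. Mitochondrial reading frames followed with 0.195% and 0.191% (0.193 ± 0.00270%). Annotated long noncoding RNAs held 0.0196% and 0.0208%, and nuclear tRNAs held 0.00343% and 0.00257%. The order of these classes was the same in both libraries. The snRNA share in replicate 2 was 0.840 times that in replicate 1, and the snoRNA share 0.905 times, whereas the coding share was 1.01 times. In bulk RNA such as this, fewer cells that hold an RNA and less of it in each cell cannot be told apart.

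**Figure D1:**
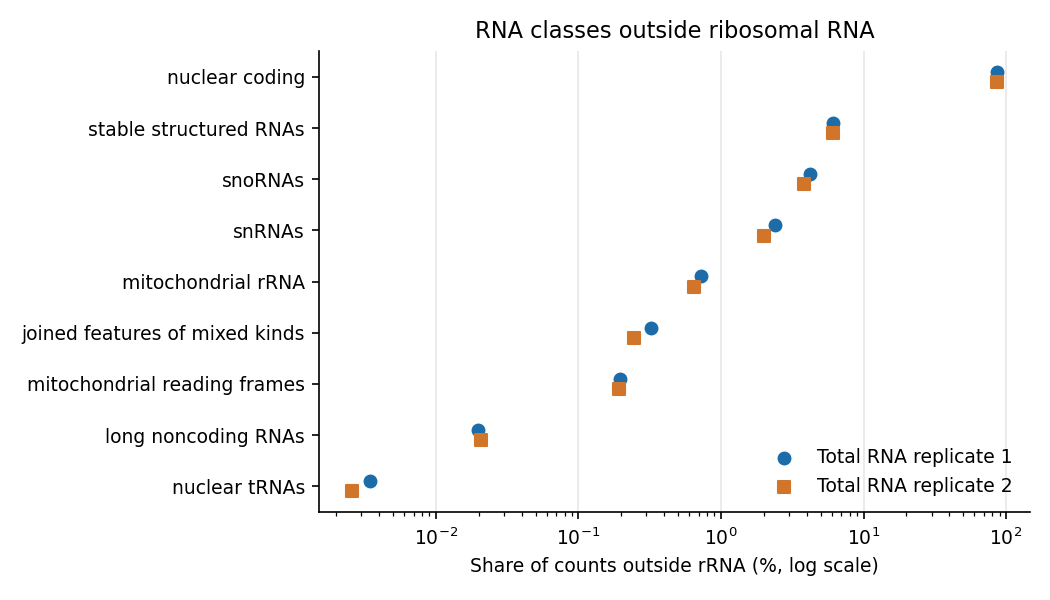
Share of the counts outside ribosomal RNA (percent, log scale) for the RNA classes with more than 100 counts over both total RNA libraries, with 1 point for each library. Nuclear coding features hold 86.0% and 87.0%, and the classes run down to nuclear tRNAs at 0.00343% and 0.00257%, in the same order in both libraries.

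SCR1, the RNA scaffold of the signal recognition particle, was the leading feature of the whole fraction. It is made by RNA polymerase III, lies at chrV:441987-442508 and spans 522 bases. SCR1 received 115003 and 159285 counts, which is 5.98% and 5.93% of all counts outside ribosomal RNA (5.95 ± 0.0402%, SD, n = 2). Its level of 114621 and 113532 RPKM was 3558 times the coding median. RPR1, the RNA subunit of nuclear RNase P, which trims the 5′ ends of pre-tRNAs, had 1622 and 2147 counts, or 2287 and 2165 RPKM. NME1, the RNA of RNase MRP, which cuts within the first internal spacer of the ribosomal precursor, had 1402 and 1743 counts, or 2145 and 1907 RPKM. Both RNAs therefore lay far below SCR1 per length: SCR1 exceeded RPR1 by 50.1 and 52.4 times and NME1 by 53.4 and 59.5 times. The RPR1 and NME1 levels did not overlap, although they lay close together.

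The mRNAs of the proteins that bind these RNAs lay much closer to the coding median. The 6 measured proteins of the signal recognition particle had mRNA levels of 51.3 to 175 RPKM, with SRP14 at the top, and none was below the coding median. Of the 11 mRNAs for proteins of RNase P and RNase MRP, which ranged from 8.96 RPKM (POP7) to 67.2 RPKM (POP5), 8 lay below it. These are mRNA levels and give no amounts of the proteins.

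The snRNAs form the catalytic and recognition parts of the spliceosome. U1 RNA, encoded by SNR19 and known to pair with the 5′ splice site, had 16481 and 19383 counts. U2 RNA, encoded by LSR1 and known to pair with the branch site, had 28563 and 33542 counts. Per length U2 lay below U1, at 12647 and 10621 RPKM against 15096 and 12697 RPKM, and the U2 to U1 ratio of levels was 0.838 and 0.837. The ratio was steady although both RNAs were lower in replicate 2, by 0.25 on the log2 scale at the median. U5 RNA, which holds the exons in place, occurs in a long and a short form with the same start, and the joined feature of the 2 forms had 1111 and 1282 counts. That is 2701 and 2229 RPKM over the 214 bases of the long form, or 3229 and 2665 RPKM over the 179 bases of the short one. The part found only in the long form had 0 and 2 counts. That part is shorter than a full read, so a full read from the long form that touches it also reaches the shared part. The count of this part therefore cannot tell how much of the long form was present. U4 RNA (SNR14), the partner from which U6 is unwound during activation, had 25 and 37 counts, or 81.3 and 86.0 RPKM over 160 bases. U6 RNA (SNR6), 112 bases long, had 0 and 3 counts. U6 and U4 act as a pair in the spliceosome, yet at this depth U6 was at or below the floor of 3 counts in both libraries. The mRNAs of the 7 Sm proteins, which form a ring on U1, U2, U4 and U5, ranged from 7.25 to 86.1 RPKM.

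The level of stable RNAs rose with their annotated length. Of 82 single stable RNAs, counting snRNAs, snoRNAs and the structured RNAs, 33 reached at least 10 times the coding median (40.2%), against 6.4% of coding features. No RNA under 100 bases reached that level (0 of 26), 1 of 15 from 100 to under 150 bases did, and 13 of 13 of at least 300 bases did. The median level was 12.1 RPKM under 100 bases, 18.6 RPKM from 100 to under 150, 376 RPKM from 150 to under 200, 403 RPKM from 200 to under 300 and 8823 RPKM from 300 bases up. Under 100 bases 21 of 26 RNAs lay below the coding median, although snoRNAs are known as abundant RNAs. The Spearman correlation of length and level over 75 single snoRNAs was 0.82 and 0.81. It was 0.20 and 0.13 among the 40 under 150 bases, 0.59 and 0.62 among the 16 from 150 to under 200 bases, and 0.74 among the 19 longer ones in both libraries. The snoRNAs of 1 library share its preparation and depth, so these values describe the libraries. The median of coding features was lower only at the short end. It was 1.52 RPKM for 60 features under 150 bases, 25 of them with 0 counts in both libraries. It was 21.4 RPKM for 239 from 150 to under 300 and 30.3 to 34.5 RPKM in each longer class. The share of coding features at 10 times the coding median ran otherwise. It was 10% under 150 bases, 12.8% from 300 to 599 bases and 2.44% from 2400 bases up. Among the stable RNAs length moved with the levels, and its part in them was not tested.

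**Figure D2:**
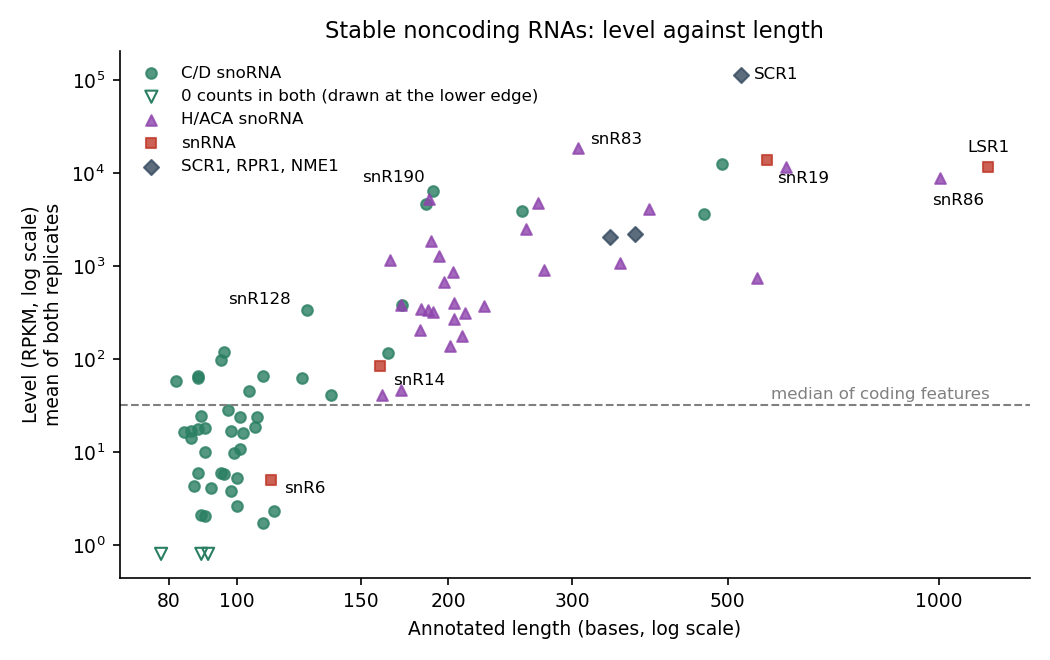
Level (RPKM, log scale, mean of both libraries) against annotated length (bases, log scale) for single snoRNAs, snRNAs and the structured RNAs SCR1, RPR1 and NME1; open triangles are 3 snoRNAs with 0 counts in both libraries and the dashed line is the coding median of 32.1 RPKM. All 13 RNAs of at least 300 bases lie at 748 RPKM or above, and 21 of 26 under 100 bases lie below the dashed line.

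Among C/D snoRNAs the highest levels belonged to the longer RNAs of the class, the leading 6 being 172 bases or more. U3 RNA, which is needed to cut the ribosomal precursor and does not guide methylation, comes from a pair of genes. SNR17A had 12097 and 15890 counts (12844 and 12065 RPKM), and SNR17B had 3301 and 4328 counts (3717 and 3485 RPKM). Their levels use the whole annotated spans of 490 and 462 bases. Any intron within a span is therefore included, and over a shorter mature RNA the levels would be higher. The counts of the copies stood in a ratio of 3.66 and 3.67. Of all 50-base stretches, 8.16% in the first and 8.72% in the second are found elsewhere, and reads from those stretches cannot be told apart. SNR190, the first gene of a pair that shares a precursor with SNR128, had 2484 and 3095 counts (6802 and 6061 RPKM). SNR4 had 1809 and 2124 counts, SNR63 2008 and 2535 counts, and SNR45 154 and 139 counts. With these lengths the levels of SNR63 and SNR17B overlapped, while the RNAs above them did not overlap with the next in order. The place of SNR17B in this order depends on the length used. At the other end SNR53, SNR59 and SNR75 had 0 counts in both libraries and SNR87 had 0 and 1.

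Some snoRNA genes lie in clusters that are transcribed as 1 precursor. SNR128 is U14, which takes part in cutting the ribosomal precursor, and it lies 69 bases downstream of SNR190 on the same strand. It had 96 and 92 counts, so that SNR190 exceeded it by 25.9 and 33.6 times in counts and by 17.2 and 22.3 times per length. SNR190 is 190 bases long and SNR128 is 126. In the cluster of SNR41, SNR70 and SNR51 on chromosome XVI, the counts were 19 and 23, 41 and 45, and 7 and 4. SNR70 is the longest of the 3 at 164 bases and also the one with most counts. In the cluster SNR72 to SNR78 on chromosome XIII no member exceeded 24 counts in either library, and all are between 87 and 109 bases long. At counts this low the order within the cluster was not resolved.

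H/ACA snoRNAs are mostly longer than C/D snoRNAs, and all of their 29 single features other than SNR10 were found with at least 10 counts in both libraries. SNR83 had 11206 and 15013 counts and the highest level, 19053 and 18254 RPKM. SNR30, which does not guide a change but is essential for cutting the precursor of the small subunit RNA, had 14201 and 18052 counts, or 12192 and 11083 RPKM. SNR86, with 1004 bases the longest annotated snoRNA, had 18178 and 22201 counts and 9420 and 8227 RPKM. Among single features these 3 levels did not overlap, whereas the next in order did: SNR32 had 6011 and 4516 RPKM and SNR82 4954 and 4559 RPKM. SNR37 followed with 4362 and 3884 RPKM. The lowest were SNR81 with 47 and 83 counts, SNR80 with 22 and 12, and SNR161 with 14 and 16. SNR10 had 0 and 2 counts under its own name, but its place in the table is the joined feature with the reading frame YGL088W, which overlaps it and received 5697 and 5923 counts. Over the 245 bases of SNR10 this is 12098 and 8995 RPKM, and the share of each gene in it cannot be told apart. Credited wholly to SNR10, this level would overlap those of SNR30 and SNR86.

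At matched length the ranges of the classes overlapped. Among single snoRNAs from 150 to under 200 bases, the 4 C/D members ranged from 116 to 6431 RPKM with a median of 2519, and the 12 H/ACA members from 41.1 to 5263 RPKM with a median of 358. Of the counts over all single snoRNAs, 79.2% and 79.8% came from 8 RNAs of at least 300 bases, and 0.320% and 0.349% from the 40 RNAs under 150 bases. The 9 core proteins of both snoRNA complexes had mRNA levels of 41.8 to 497 RPKM, with NOP10 at the top, followed by NOP1, the methylase of the C/D complex, at 397 and 422 RPKM, and CBF5, the pseudouridine synthase of the H/ACA complex, at 296 and 276 RPKM.

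Nuclear tRNAs carry amino acids to the ribosome and are, after ribosomal RNA, a main part of the RNA mass of a yeast cell. In these libraries they received 66 and 69 counts over 190 features, of which 122 had 0 counts in both libraries and none had more than 4 counts in replicate 1 or 7 in replicate 2. Long noncoding RNAs were also scarce. The counts of ICR1, which is transcribed across the FLO11 promoter, were 70 and 100 under its own name, beside 20 and 39, 6 and 11, and 10 and 6 in 3 joined features. The counts of SRG1, which is transcribed across the SER3 promoter, were 46 and 87. SRG1 had a level of 43.4 and 58.7 RPKM, and SER3, the serine synthesis gene it is known to repress in rich medium, had 27.3 and 26.1 RPKM. IRT1, which overlaps the IME1 promoter, had 47 and 60 counts. The copies RUF5-1 and RUF5-2 had 76 and 98 and 63 and 110 counts, and RUF22 and RUF23 had 0 in both libraries.

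Mitochondrial RNA made up 0.925% and 0.837% of the counts outside cytoplasmic ribosomal RNA. Most of it was the ribosomal RNA of the organelle. The 21S RNA of the large subunit had 10487 and 13121 counts, or 1655 and 1481 RPKM over 3296 bases, and the 15S RNA of the small subunit had 3510 and 4208 counts, or 1107 and 949 RPKM. The level of the 15S RNA was therefore 0.669 and 0.641 times that of the 21S RNA. RPM1, the RNA of mitochondrial RNase P, had 15 and 6 counts alone and 18 and 15 in a joined feature.

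Mitochondrial reading frames received 3745 and 5134 counts, and 66.8% and 65.2% of these lay in the COX1 locus. COX1 encodes a subunit of cytochrome c oxidase, and its introns hold the frames AI1 to AI5, several of which encode proteins that help to splice them. Because the intron frames are annotated from the start of COX1, the table splits the locus into segments by the frames that cover them, and levels here use the bases of each segment. The highest single frame was OLI1, the ring subunit of the ATP synthase, with 262 and 379 counts (590 and 610 RPKM). The segment shared by COX1, AI5_ALPHA and AI4 followed with 488 and 685 counts (532 and 534 RPKM), and ATP6, another subunit of the synthase, with 417 and 619 counts (278 and 295 RPKM). These 3 did not overlap. The first intron, with AI1, had 1135 and 1490 counts, the most of any frame, and 253 and 237 RPKM, against 127 and 121 RPKM in the exon bases annotated to COX1 alone. The second intron, with AI2, had 112 and 106 RPKM. The frames AI1 and AI2 lie in group II introns and are known as maturases, and COX1 exon segments of at least 200 bases ranged on average from 67.3 RPKM, shared with AI5_ALPHA, to 533 RPKM, shared with AI5_ALPHA and AI4. COX3 had 103 and 101 RPKM, COX2 91.1 and 105 RPKM, and the bases annotated to COB alone 56.9 and 46.3 RPKM. All segments of the COB locus, which encodes cytochrome b, held 6.41% and 6.39% of the mitochondrial frame counts. At the low end were Q0255 with 2 and 1 counts, the COB intron frame BI3 with 1 and 2, and VAR1 with 1 and 3. VAR1 is a ribosomal protein encoded in the mitochondrial genome. ATP8, 147 bases long, had 0 and 1 counts.

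The order of the mitochondrial levels followed base composition. Yeast mitochondrial DNA is rich in A and T, and VAR1 has 10.4% G and C. Over 22 segments of at least 200 bases, the Spearman correlation of G and C content with level was 0.86 and 0.84, and the segments share a genome, precursors and libraries. The 9 segments under 20% G and C had levels of 0.504 to 30.2 RPKM with a median of 3.25, and the 13 others had 18.3 to 600 RPKM with a median of 109. The 9 were AI4, BI4, AI3, BI2, AI5_BETA, AI5_ALPHA, BI3, Q0255 and VAR1, mostly intron frames of COX1 and COB. The 13 others were mostly exon segments and whole genes, but included the intron frames AI1, AI2 and SCEI. For scale, the median coding feature of the nucleus has 39.8% G and C. Base composition and place in an intron largely moved together with the levels, and the part of neither was tested. Of 8 mRNAs of nuclear genes that make and process these RNAs, 6 lay below the coding median. The 8 ranged from 10.7 to 71.6 RPKM on average over both libraries, with a median of 16.1 RPKM. The RNA polymerase RPO41, at 39.4 and 30.6 RPKM, and the helicase MSS116, at 76.1 and 67.1 RPKM, were not among these 6.

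**Figure D3:**
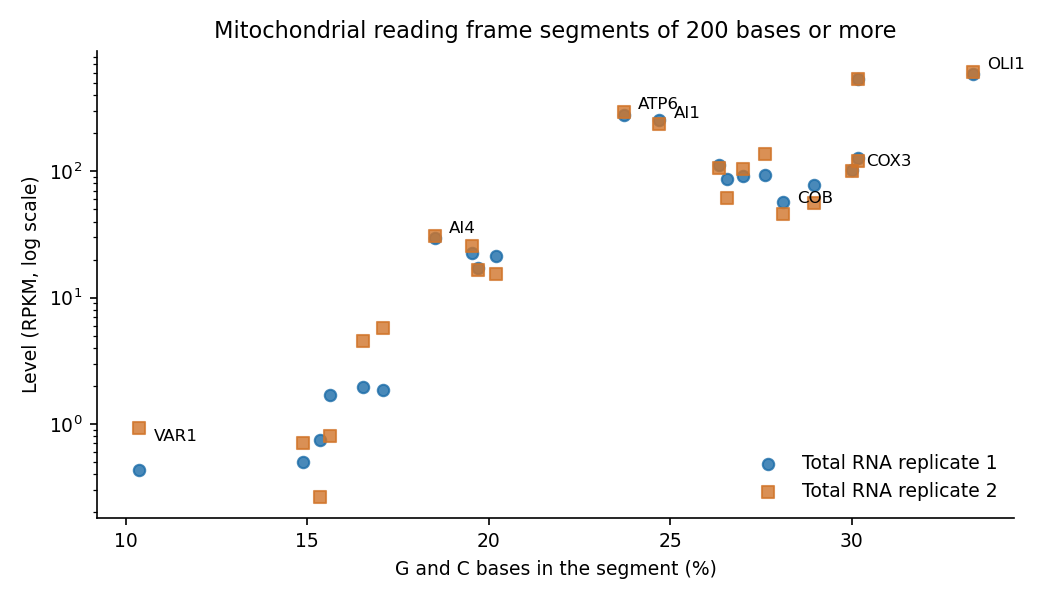
Level (RPKM, log scale) against the share of G and C bases (percent) for 22 mitochondrial reading frame segments of at least 200 bases, with 1 point for each library. The 9 segments under 20% G and C lie at 30.2 RPKM or below on average, and OLI1 with 33.3% lies highest at 590 and 610 RPKM.

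Among nuclear mRNAs the highest levels belonged to cell wall proteins, glycolytic enzymes and translation factors. CCW12, a structural mannoprotein of the cell wall, had 19549 and 18698 RPKM, 597 times the coding median. TDH3, the main glyceraldehyde-3-phosphate dehydrogenase, had 14010 and 14145 RPKM, 439 times the coding median. These did not overlap each other or any other single coding feature. FBA1, the aldolase, had 9813 and 10164 RPKM, and CWP2, another cell wall mannoprotein, had 9838 and 9708 RPKM, so their order was not resolved. ENO2, an enolase, followed with 9116 and 9408 RPKM. TEF1 and TEF2 encode the same elongation factor, and 92.5% of the 50-base stretches in each are found elsewhere. The 8847 and 8925 RPKM of TEF1 and the 8670 and 9036 RPKM of TEF2 therefore cannot be fully told apart. PDC1, the main pyruvate decarboxylase, had 7847 and 8377 RPKM, SED1, a cell wall protein, 6833 and 6689 RPKM, and ADH1, the alcohol dehydrogenase of fermentation, 6217 and 6452 RPKM.

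The next places included CDC19, RPS15, TDH2, RPS26A, RPS25A, RPS20, RPL5, YDR524C-B, RPL16B, PGK1, HSP150, YEF3, ENO1 and PMA1, the last of these, the proton pump of the plasma membrane, at 2478 and 2562 RPKM. CDC19, the pyruvate kinase, is understated: it had 15591 and 22912 counts alone and 28558 and 42985 in a joined feature with the reading frame YAL037C-B. With these credited to CDC19 its level is 15282 and 16313 RPKM, above TDH3. Likewise PGK1, phosphoglycerate kinase, had 7716 and 10565 counts alone and 3298 and 4529 in a joined feature. Crediting joined counts would also bring RPL33A and GPM1, phosphoglycerate mutase, into the leading 25, GPM1 with 4498 and 4699 RPKM against 2022 and 2069 RPKM alone. In this order of 25, 10 neighbouring pairs overlapped between libraries. The median coding length of the 25 was 1017 bases, against 1185 bases over all coding features, and 1 of 25 has an intron, against 4.58% of coding features. A 50-base stretch found elsewhere occurred in 11 of the 25, against 6.96% of coding features.

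**Figure D4:**
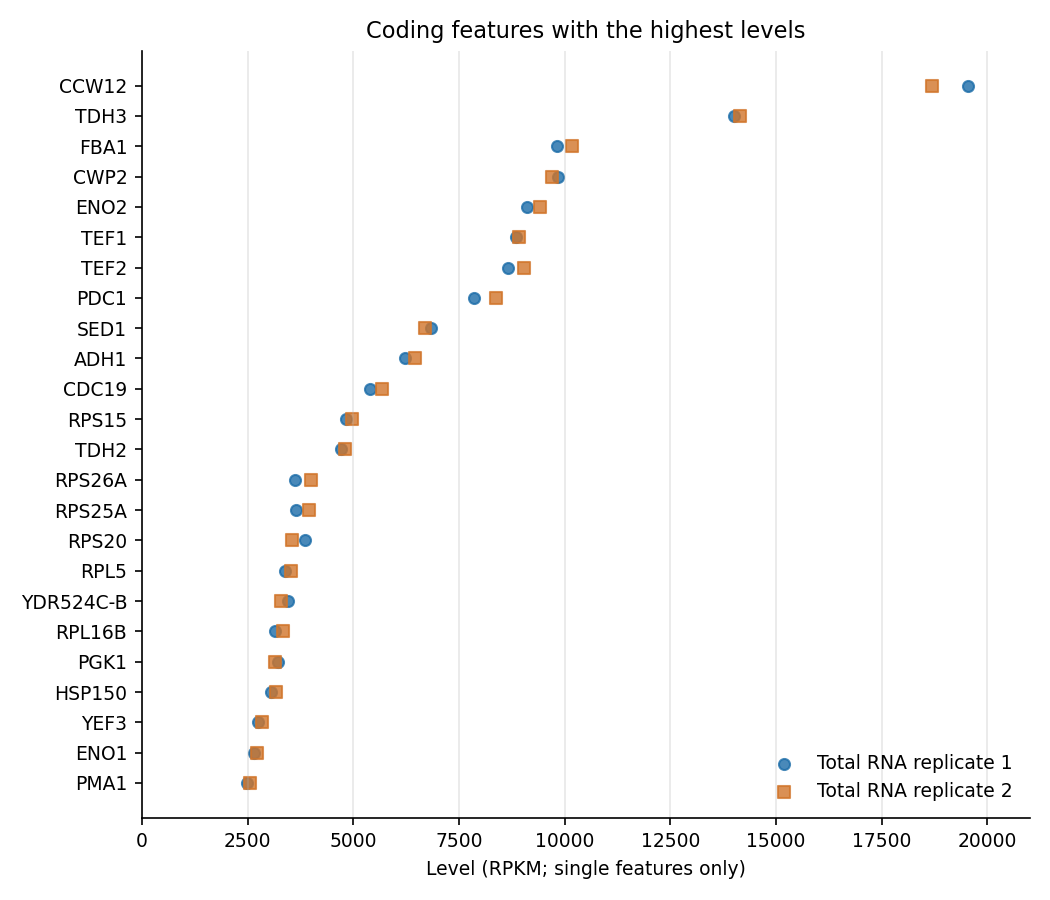
Level (RPKM, linear axis) of 24 of the 25 single coding features with the highest mean levels, with 1 point for each total RNA library. Among these single features CCW12 at 19549 and 18698 RPKM and TDH3 at 14010 and 14145 RPKM stand above the rest. PMA1 closes the list at 2478 and 2562 RPKM. CDC19 is drawn without its joined counts, which would place it above TDH3 at 15282 and 16313 RPKM.

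Among single features by counts, which favour long mRNAs, TDH3 led in replicate 1 with 26902 and PDC1 in replicate 2 with 38096, against 37980 for TDH3 there and 25521 for PDC1 in replicate 1. By the mean share over both libraries, TEF1, TEF2, ENO2, FBA1, YEF3, CDC19, CCW12 and PMA1 completed the leading 10, although SED1 had more counts than PMA1 in replicate 1, with 13357 against 13132. The joined feature of CDC19 and YAL037C-B, at 28558 and 42985 counts, exceeded every single coding feature in both libraries. The fungal elongation factor YEF3 had 16496 and 23987 counts. The 25 features with most counts held 19.6% and 19.8% of all nuclear coding counts (19.7 ± 0.154%, SD, n = 2). The leading 10, 100 and 1000 features of each library held 12.3% and 12.5%, 33.3% and 33.8%, and 70.7% and 71.2%. At the level of single features 90% of the coding features lay between 2.27 and 407 RPKM.

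Glycolysis and fermentation, the route by which yeast in glucose turns sugar into ethanol, had the highest list median. Its 21 genes had a median level 63.8 ± 2.59 times the coding median (SD, n = 2), and 16 of 21 (76.2%) reached 10 times that median, against 6.4% of coding features. They held 10.8 ± 0.120% of the nuclear coding counts. Within isoenzymes the levels were far apart. PDC1 exceeded PDC5 by 87.4 and 97.2 times, the single feature of CDC19 exceeded PYK2 by 109 and 146 times, an understatement because its joined counts are left out, and HXK2 exceeded HXK1 by 11.2 and 13.6 times. PDC6, the minor decarboxylase, had 6 counts in each library and was the lowest member. TDH3 exceeded TDH2 by 2.98 and 2.95 times and ENO2 exceeded ENO1 by 3.43 and 3.44 times, but these copies share 50-base stretches. The subunits PFK1 and PFK2 of phosphofructokinase, which form 1 enzyme, lay close to each other with a ratio of 0.916 and 0.912.

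The ribosome and its factors made up another large group. Of 134 genes of cytosolic ribosomal proteins, 121 (90.3%) reached 10 times the coding median, and the list median was 29.8 ± 1.38 times it, or 16.6 times with the whole gene span, introns included, as length. They held 8.88 ± 0.0843% of nuclear coding counts. Among single features RPS15 led with 4836 and 4961 RPKM, followed by RPS26A, RPS25A and RPS20. RPL33A had 128 and 209 counts alone but 2735 and 3916 in a joined feature, and with these credited to it its level is 4597 and 4737 RPKM instead of 206 and 240 RPKM. The lowest, RPL36B, had 3 and 0 counts alone but 500 and 801 in a joined feature. Translation factors had a median of 14.3 ± 0.268 times, with 16 of 24 measured genes (66.7%) at 10 times or more, and HYP2 had no single feature used here. EFT1 and EFT2, which encode the same elongation factor, had 2073 and 2137 and 2169 and 2181 RPKM. HEF3, the alternative form of YEF3, had 30 and 39 counts, and YEF3 exceeded it by 550 and 615 times. Ribosome biogenesis factors, by contrast, had a median of 5.50 ± 0.206 times, and 2 of 25 (8%) reached 10 times.

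Cell wall proteins had a median 33.8 ± 2.34 times the coding median, and 14 of 18 (77.8%) reached 10 times it. After CCW12, CWP2 and SED1 came HSP150 with 3064 and 3177 RPKM, and PIR3 was lowest with 54.3 and 53.3 RPKM. Histone genes, most of which are transcribed in S phase, had a median of 16.6 ± 0.892 times, with 7 of 10 (70%) at 10 times or more. Over the 4 that share no 50-base stretch with another place in the genome the median was 9.06 times. HHT2, a histone H3 gene, led with 1699 and 1692 RPKM, and the linker histone HHO1 was lowest with 89.7 and 82.8 RPKM. Amino acid synthesis genes had a median of 11.7 ± 0.521 times, 14 of 26 (53.8%) at 10 times or more, with ILV5 highest at 1200 and 1347 RPKM. Chaperones had a median of 8.91 ± 0.0490 times, and 7 of 18 (38.9%) reached 10 times; over the 12 with no such shared stretch the median was 4.59 times. Within this list the constitutive ribosome-bound SSB2 had 1849 and 2031 RPKM and SSA2 had 1894 and 1780 RPKM. The stress-induced SSA4 had 12.9 and 15.6 RPKM and HSP12 had 7.88 and 6.76 RPKM, both among the 4 of 18 members below the coding median. HSP82, HSP104 and HSP42 lay above it, at 148, 109 and 58.9 RPKM on average over both libraries. Nuclear genes of oxidative phosphorylation had a median of 3.06 ± 0.131 times, and 1 of 30 (3.33%), ATP2 at 542 and 548 RPKM, reached 10 times. Every share named here is to be read against 6.4% of coding features, and since the lists were chosen with results of these data known, the shares describe them only.

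**Figure D5:**
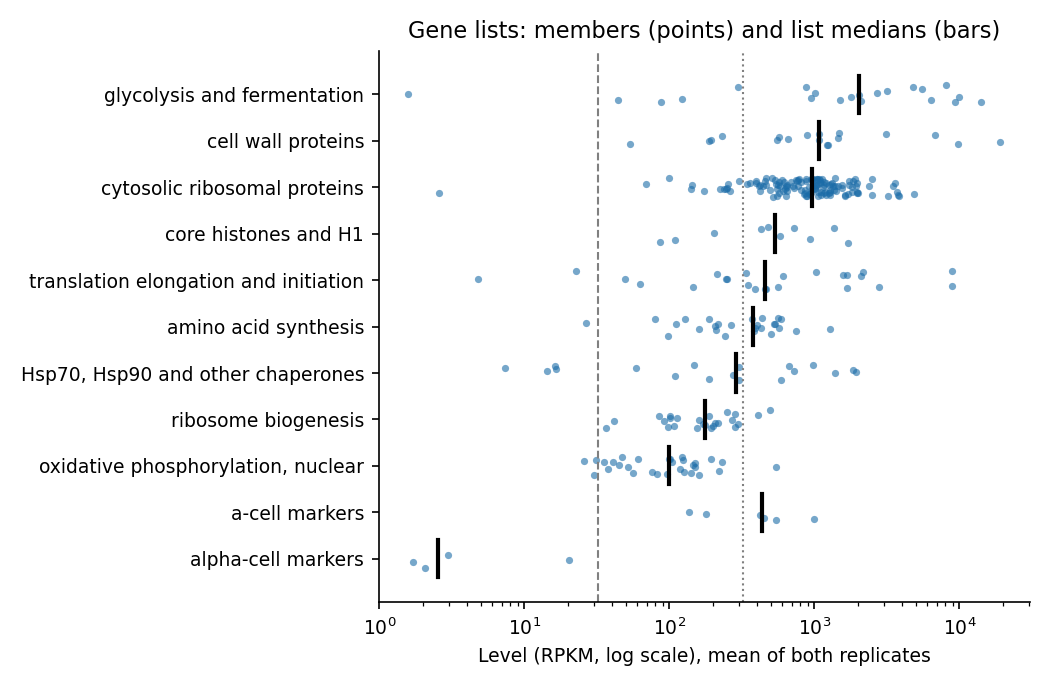
Level (RPKM, log scale, mean of both libraries) of each measured member of 11 gene lists, with black bars at the list medians, a dashed line at the coding median and a dotted line at 10 times it. The glycolysis and fermentation list has the highest median, 2046 RPKM, and the 4 alpha-cell markers all lie below the coding median.

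The leading mRNAs used a narrow set of codons, as is long known for abundant yeast mRNAs. Arginine was written AGA in 83.3% of its codons in the 100 coding features with the highest levels and in 47.4% over all 5867 coding features with codon counts. Glycine was written GGT in 94.6% against 45.4%, leucine TTG in 74.8% against 28.3% and proline CCA in 88.3% against 40.7%. CGA and CGG for arginine were not used in the 100 at all. A set of 18 codons, the most used for each amino acid in those 100, filled a median of 75.4% of codons in the 100 and of 38.4% over all features, where the definition favours the 100. Over all 5867 features, the defining 100 included, the share of these codons and the level had a Spearman correlation of 0.53 and 0.54, across genes that are not independent. All of the 25 highest features lay above 60.8%, the 95th percentile of all features. These 25 are among the 100 that define the set, so this describes the set and is no independent finding.

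PDC1 and PDC6 are isoenzymes that lie far apart in level. The first 60 bases of each reading frame are given below from RefSeq R64, PDC1 from chrXII:234022-234081 (minus strand) and PDC6 from chrVII:652922-652981 (minus strand), with codons of the set of 18 in capitals.
PDC1: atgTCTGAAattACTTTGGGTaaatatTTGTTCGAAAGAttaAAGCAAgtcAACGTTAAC
PDC6: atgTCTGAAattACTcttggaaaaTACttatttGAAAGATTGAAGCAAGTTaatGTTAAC
In these 20 codons the use of the set differed little, with 14 in PDC1 and 12 in PDC6. Over the whole frame, which is not shown, 79.7% and 43.2% of codons were in the set. PDC1 itself is among the 100 features that define the set.

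Marker genes were read against the strain. BY4741 is a haploid of mating type a. The 6 a-cell markers had 137 to 993 RPKM and none was below the coding median, with MFA2, a gene for the a-factor pheromone, at 1089 and 897 RPKM and STE2, the receptor for alpha-factor, at 525 and 563 RPKM. All 4 alpha-cell markers lay below it. SAG1, the alpha-agglutinin, had 70 and 117 counts, MF(ALPHA)1 had 5 and 1, MF(ALPHA)2 0 and 4, and STE3, the receptor for a-factor, 5 and 6. HIS3, deleted in part in this strain, had 124 and 145 counts, or 97.3 and 81.4 RPKM, and LEU2, URA3 and MET17 were not analysed here.

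The libraries were close to each other. Over 5310 coding features with at least 10 counts in both, the common coefficient of variation was 0.0571. The chi-square of coding counts divided by its degrees of freedom was 1.88 over 5671 features. Over 2544 coding features with at least 100 counts in both libraries, the median absolute log2 difference was 0.10. Among those features and all other classes, 26 of 29 snoRNAs were lower in replicate 2, with a median of -0.15, whereas 1321 of 2544 coding features were. ARG1, an arginine synthesis enzyme, differed most upwards with 139 and 342 counts (log2 0.82), and CAR2, an enzyme of arginine breakdown, had 246 and 500 counts (0.54), followed by NSA1 (0.53), MSA1 (0.52) and ERC1 (0.48). YBL055C differed most downwards with 128 and 103 counts (log2 -0.80), followed by GLG1 (-0.65), HFD1 (-0.65), GAC1 (-0.64) and the snoRNA SNR45 (-0.63). These are differences between 2 cultures of 1 group and were not tested.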

How the data were processed

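The authors deposited 1 table of raw read counts per feature, with no normalization. Per the submitters' processing notes, cutadapt 1.18, Bowtie2 2.3.4.3, FastQC 0.11.8 and the R64 genome build were used. Which program counted the reads, whether it used strand and how it placed reads that map more than once are not given in the sources used here, so counts of paralogs, overlapping genes and antisense pairs are uncertain. Only the columns of the total RNA replicates were used.

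RPKM was computed from the deposited counts and RefSeq R64 exon lengths, with joined features kept out. For nuclear genes these are coding lengths, 99.97% being multiples of 3. Mitochondrial levels used the bases covered by exactly the named frames. Of the single features, 5998 matched RefSeq, and single coding features with no match held 0.362% and 0.359% of coding counts. Spread was estimated with edgeR 4.0.16 (common dispersion within the group, R 4.3.3), tested on simulated data, and with DESeq2 1.42.0 size factors as an alternative. Python 3.11.15, scipy 1.17.1 and Biopython 1.88 did the rest. Sequences are RefSeq R64.

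Named genes were the 25 coding features highest by level and 10 by count, the snRNAs and structured RNAs, the 6 highest and 4 lowest snoRNAs of each class, the extremes of the mitochondrial frames, up to 4 highest members of each list, the strain and mating type markers, and the 5 features differing most between libraries in each direction. Of the 25, 1 is not reported here. Cluster members, isoenzymes, list minima, long noncoding RNAs, middle mitochondrial segments and the other examples were named after their values were seen. The members and lists were chosen with earlier results of these data known. Alternatives left out a library, the joined features, low counts or genes with shared 50-base stretches, or changed the lengths, the scaling or the drop rule.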

Additional observations from a re-analysis of the deposited data

How the results depend on the processing

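Of 58 alternatives that kept both libraries and changed a value with an SD between them, 33 moved it by less than that SD and 25 moved it further. Leaving out either library, which with 2 libraries always stays within the SD, gave the other one's value: 3.54% and 3.58% for the share outside ribosomal RNA, 86.0% and 87.0% for nuclear coding features, 19.6% and 19.8% for the 25 leading mRNAs. With the free-standing ribosomal DNA frames kept, a choice made after seeing the data, the share outside ribosomal RNA was 3.62%, that of the structured RNAs 5.99% and that of mitochondrial frames 0.189%. Without joined features the structured RNAs held 6.38%, mitochondrial frames 0.161% and the 25 leading mRNAs 20.6%. With joined counts credited to each gene, also chosen after seeing the data, the 25 held 21.9%, and the list medians were 13.9 times the coding median for translation and 8.70 for chaperones.

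With at least 10 counts in both libraries, the list medians were 25.4 for ribosomal proteins, 55.0 for glycolysis, 12.2 for translation, 28.7 for cell wall, 7.86 for chaperones, 14.1 for histones, 9.95 for amino acid synthesis, 4.68 for ribosome biogenesis and 2.60 for oxidative phosphorylation; this filter removes low coding features and so raises the coding median. Without genes that share 50-base stretches they were 35.4 for ribosomal proteins (54 genes), 46.3 for glycolysis, 10.6 for translation, 30.3 for cell wall, 4.59 for chaperones (12 genes) and 9.06 for histones (4 genes). With the gene span as length, which counts introns, ribosomal proteins stood at 16.6. The coefficient of variation was 0.0581 with TMM, 0.0578 with DESeq2 size factors and 0.0574 with no filter.

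No paired analysis was possible because 1 group was described and no test was made. At this depth, features at or under 3 counts, such as U6, could not be ranked.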
